A study of Homo sapiens with 8 samples.

Results

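The genes described here encode proteins of the tight junction, the seal that joins epithelial cells near their apical side. They were chosen by name: 9 genes were listed, and a gene was taken into the comparison when the array's annotation gave it a row with its symbol alone. This held for 6 of the 9, namely the claudins CLDN1, CLDN3, CLDN4 and CLDN7 and the scaffold genes TJP1 and CGN, each with 1 row, out of 14271 genes with such a row. OCLN, MARVELD2 and F11R were not analysed here. The arrays measured RNA of PNT2 cells, a cell line grown from human prostatic epithelium. In 4 samples the cells had been transfected with small interfering RNA (siRNA) against the epithelial splicing factors ESRP1 and ESRP2 (siESRP), and in 4 control samples with siRNA against green fluorescent protein (siGFP). All samples shared the line and the medium. Nothing in the labels says that samples of a group were grown as separate cultures, so the p-values reflect the spread among these samples alone, which may be technical.

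Claudins are membrane proteins with 4 transmembrane spans whose extracellular loops pair between neighbouring cells and set which ions pass between them. Their cytoplasmic tails bind scaffold proteins of the zonula occludens family, of which ZO-1, the product of TJP1, is one, and the scaffolds tie the claudin strands to actin. Cingulin, the product of CGN, is a cytoplasmic protein that binds zonula occludens proteins and actomyosin. Occludin (OCLN) and tricellulin (MARVELD2) are further membrane proteins of the strands, and F11R encodes the adhesion molecule JAM-A. The transcriptional repressors of the Snail and ZEB families bind E-boxes in claudin promoters and are known for switching claudin genes off when epithelial cells become mesenchymal.

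The members whose siESRP and siGFP arrays did not overlap were CLDN4, CLDN7 and TJP1, and 1 promoter of each is shown. Claudin promoters are sites at which those repressors act. TJP1 is not a claudin gene, and its window is shown only because its groups did not overlap. Each window runs from 250 bases before to 50 bases after an annotated start in RefSeq's GRCh38.p14, 5′ to 3′ on the gene's strand, and capitals mark the E-box CAGGTG and the GC box GGGCGG, each searched on both strands with overlapping matches counted. The CLDN4 window is chr7:73830746-73831045 on the plus strand, the CLDN7 window (the second of 2 listed) is chr17:7262429-7262728 on the minus strand, and the TJP1 window (the first of 4 listed) is chr15:29969000-29969299 on the minus strand.
CLDN4: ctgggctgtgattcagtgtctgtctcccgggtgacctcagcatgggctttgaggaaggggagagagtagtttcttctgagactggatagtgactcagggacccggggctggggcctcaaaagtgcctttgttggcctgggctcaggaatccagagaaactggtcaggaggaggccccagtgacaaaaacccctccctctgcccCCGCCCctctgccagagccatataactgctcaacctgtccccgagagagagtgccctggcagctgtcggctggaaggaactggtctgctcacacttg
CLDN7: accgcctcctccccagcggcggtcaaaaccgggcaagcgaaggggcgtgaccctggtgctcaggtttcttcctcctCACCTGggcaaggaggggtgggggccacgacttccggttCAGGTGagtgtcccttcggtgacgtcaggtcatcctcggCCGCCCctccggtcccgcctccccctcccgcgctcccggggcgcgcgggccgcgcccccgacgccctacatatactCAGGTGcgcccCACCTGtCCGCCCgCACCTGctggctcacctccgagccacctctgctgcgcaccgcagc
TJP1: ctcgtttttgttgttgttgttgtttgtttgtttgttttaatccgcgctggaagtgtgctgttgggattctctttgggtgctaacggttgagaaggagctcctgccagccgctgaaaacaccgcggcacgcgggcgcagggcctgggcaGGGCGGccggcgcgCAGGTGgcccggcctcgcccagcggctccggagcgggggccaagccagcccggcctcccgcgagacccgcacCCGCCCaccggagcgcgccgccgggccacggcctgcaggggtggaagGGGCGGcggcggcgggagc

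The CLDN7 window held 5 E-boxes and 2 GC boxes. The TJP1 window held 1 E-box and 3 GC boxes, and the CLDN4 window held 0 E-boxes and 1 GC box. Among all 35116 promoter windows of the same length, 20.6% held at least 1 E-box and 45.0% held at least 1 GC box. At least 5 E-boxes, the count of the CLDN7 window, were held by 33 of them (0.094%). The CLDN7 and TJP1 windows were picked for printing after the search, each being the one window of its gene with an E-box: the first of CLDN7 and the other 3 of TJP1 held 0. Among the other listed genes, CLDN3 had 1 E-box in its window, OCLN had 1 and 2 in its windows, and CLDN1, CGN and MARVELD2 had 0. Of the 9 listed genes, 8 had a window in the table. These matches describe letters in a window and do not show binding.

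Of the siRNA targets, ESRP1 was lower in the siESRP arrays. ESRP1 had normalized intensities of 568, 499, 660.3 and 599 in siESRP arrays, against 2232, 2527, 2617 and 2379 in siGFP arrays. ESRP2 had no row with its symbol alone. The row shared by ESRP2 and NFATC3 averaged 148 ± 27.4 in siESRP and 531 ± 33.4 in siGFP (SD, n = 4 each), and its fall cannot be assigned to either gene. The deposited medians spanned 247 to 269 in siESRP and 233 to 286 in siGFP. No array stood apart, with Spearman correlations over all rows of 0.987 to 0.995 within siESRP, 0.988 to 0.994 within siGFP and 0.979 to 0.985 between the groups. Epithelial markers were plainly present, and 13 of 15 were measured. Their summed intensity was 32462 to 34248 in siESRP and 32446 to 33682 in siGFP. Of these markers 4 rose (CDH1, KRT18, KRT19 and KRT15) and 2 fell (ESRP1 and KRT14). CDH1 averaged 3042 in siESRP and 2137 in siGFP (limma adjusted p = 0.00182). KRT14 averaged 367 in siESRP and 765 in siGFP (limma adjusted p = 0.00465). Of 8 fibroblast markers the sum was 1385 to 1585 in siESRP and 1209 to 1415 in siGFP, where FBLN1 rose (1068 in siESRP and 789 in siGFP, limma adjusted p = 0.00861), COL1A1 fell (182 in siESRP and 252 in siGFP, 0.00649), and LUM and DCN stayed under 40 on every array. Of 8 endothelial and 6 leukocyte markers the sums ran from 534 to 633 and from 908 to 1112 in siESRP, against 497 to 556 and 808 to 912 in siGFP, with PECAM1, PTPRC and CD3E under 25 on every array. In these lists CDH5 rose (324 in siESRP and 241 in siGFP, limma adjusted p = 0.0333) and CD68 rose (747 in siESRP and 551 in siGFP, 0.0141). TEK fell (22.1 in siESRP and 30.2 in siGFP, limma adjusted p = 0.0118) and CSF1R fell (80.9 in siESRP and 154 in siGFP, 0.00323). Shares called were 46.2% of epithelial, 25% of fibroblast, 25% of endothelial and 33.3% of leukocyte markers, beside 20.2% of all rows. The epithelial share and sum include ESRP1, which was itself a target of the siRNA. The part of these markers in the results was not tested.

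With siRNA against ESRP1 and ESRP2, 1 of the 6 genes passed the test: TJP1 fell, by 1.21-fold, and CLDN1, CLDN3, CLDN4, CLDN7 and CGN did not pass. CLDN7 and CLDN4 were higher on every siESRP array than on any siGFP array without passing the threshold, at 1.25-fold and 1.13-fold. The count of 1 called in 6 stands beside 20.2% of all 18495 rows called in either direction, 10.9% higher and 9.31% lower in siESRP (limma, Benjamini-Hochberg adjusted p under 0.05 over all rows). Groups did not overlap in 3 of the 6 genes, where the share over all rows was 24.6%. The median log2 difference of the 6 was 0.07, where that of all rows was -0.02. The share called, 16.7%, is near that of all rows and is no result about these genes. With 6 genes chosen by name, nothing particular to them is read from the share without overlap either. The 6 genes did not move as a block: the median of their log2 differences from the siGFP mean was 0.09, -0.07, 0.19 and 0.07 on siESRP arrays 1 to 4 and 0.11, -0.10, 0.05 and -0.05 on siGFP arrays 1 to 4, so the groups overlapped.

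**Figure D1:**
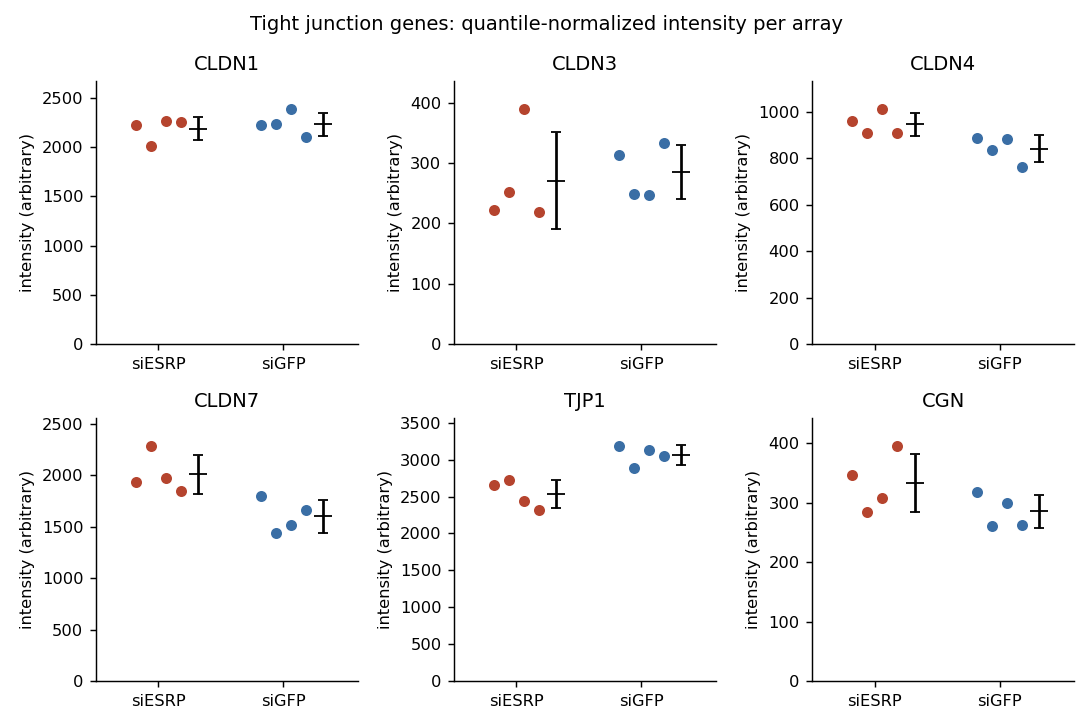
Quantile-normalized intensity (arbitrary linear units, axes from 0) of the 6 measured tight junction genes, with 1 point per array for the 4 siESRP and 4 siGFP arrays in order of replicate number, and the mean ± SD to the right of each group. The groups separate for CLDN4, CLDN7 and TJP1 and overlap for CLDN1, CLDN3 and CGN.

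Among the claudins, CLDN7 had the largest difference in this set. Claudin-7 is widespread in glandular epithelium and lies along the lateral membrane as well as in the junction. CLDN7 had 1932, 2288, 1973 and 1848 in siESRP arrays, against 1801, 1438, 1516 and 1660 in siGFP arrays. Every siESRP array lay above every siGFP array, with siGFP array 1 the closest to them. Its mean was 2010.4 ± 192 in siESRP and 1604 ± 161 in siGFP (SD, n = 4 each), a log2 difference of 0.33 ± 0.10 SE with a 95% interval of 0.10 to 0.55, and the limma adjusted p was 0.0525. It passed when siGFP array 1 was left out (adjusted p = 0.0378), and its adjusted p ran from 0.0242 to 0.211 over 14 alternative settings, 4 of which put it under the threshold.

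CLDN7 also had a row shared with ELP5, which encodes a subunit of the Elongator complex and is the neighbour of CLDN7 on chromosome 17, with annotated spans that overlap in RefSeq. The shared row went the other way. It had 1020.1, 1119, 1010 and 1102 in siESRP arrays, against 1282, 1435, 1201 and 1430.3 in siGFP arrays, and the groups did not overlap. It fell by 1.26-fold (log2 difference -0.33 ± 0.07 SE, limma adjusted p = 0.0208). Because the row carries both symbols, its change cannot be assigned to either gene, and it is not counted for CLDN7.

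Claudin-4 tightens the junction against sodium, and its gene lies next to CLDN3 on chromosome 7 with 0 protein-coding genes between them in RefSeq. CLDN4 had 959, 908, 1012 and 909.9 in siESRP arrays, against 888, 836, 882 and 762 in siGFP arrays. All siESRP arrays lay above all siGFP arrays. The means were 947 ± 49.1 in siESRP and 842 ± 58.1 in siGFP (SD, n = 4 each), and the log2 difference of 0.17, with a 95% interval of 0.02 to 0.33, did not pass (limma adjusted p = 0.116). Under the 14 alternatives its adjusted p ran from 0.106 to 0.531.

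Claudin-3 is a sealing claudin close in sequence to claudin-4. CLDN3 had 222, 253, 389 and 219 in siESRP arrays, against 314, 249, 247 and 334 in siGFP arrays. The groups overlapped, with siESRP array 3 the highest of all 8 and the other siESRP arrays among the lower values. CLDN3 varied most of the 6 genes, with a coefficient of variation of 29.7% in siESRP and 15.5% in siGFP. Its log2 difference was -0.11 with a 95% interval of -0.60 to 0.38 (limma adjusted p = 0.785), so changes of up to 1.31-fold higher, or down to 0.661 of the siGFP level, lie within the interval. CLDN3 and CLDN4 therefore had opposite signs, but the difference between them was not tested.

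Claudin-1 is a barrier claudin of stratified and glandular epithelium, best known from the water barrier of the skin. CLDN1 had 2221, 2009, 2259 and 2255 in siESRP arrays, against 2219, 2229, 2382 and 2098 in siGFP arrays. The groups overlapped, and the means were 2186 ± 119 in siESRP and 2232 ± 116 in siGFP (SD, n = 4 each). The 95% interval of the log2 difference was -0.17 to 0.11, the narrowest of the 6. Changes from 0.889 to 1.08 of the siGFP level lie within it. The log2 difference of CLDN1 was -0.03 (limma adjusted p = 0.785). Its sign turned in 2 of the 14 alternatives.

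Among the scaffolds, TJP1 had 2650.5, 2722, 2441 and 2318 in siESRP arrays, against 3186, 2886, 3127 and 3053 in siGFP arrays. Every siESRP array lay below every siGFP array. The means were 2533 ± 186 in siESRP and 3063 ± 130 in siGFP (SD, n = 4 each), a log2 difference of -0.28 ± 0.06 SE with a 95% interval of -0.43 to -0.12 (limma adjusted p = 0.0238). Of the 6 genes it varied least among the siGFP arrays, with a coefficient of variation of 4.24%.

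The TJP1 call depended on the scaling and on single arrays. In the deposited values, whose medians differed between arrays, TJP1 had 2808, 2473, 2321 and 2458 in siESRP arrays, against 3624, 2795, 3283 and 2521 in siGFP arrays, and the groups overlapped. The log2 difference there was -0.27, nearly the same size, with a limma adjusted p of 0.252, and with median scaling it was -0.29 with an adjusted p of 0.0669. Leaving out siESRP array 3 or 4, or siGFP array 1, 3 or 4, gave adjusted p-values of 0.0530, 0.0504, 0.0614, 0.0610 and 0.0581. The direction was the same in all 14 alternatives, with log2 differences from -0.31 to -0.23, and 6 of them passed. The exact two-sided permutation p was 0.0286 for TJP1, CLDN7 and CLDN4 alike, the smallest that 4 against 4 arrays can give.

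**Figure D2:**
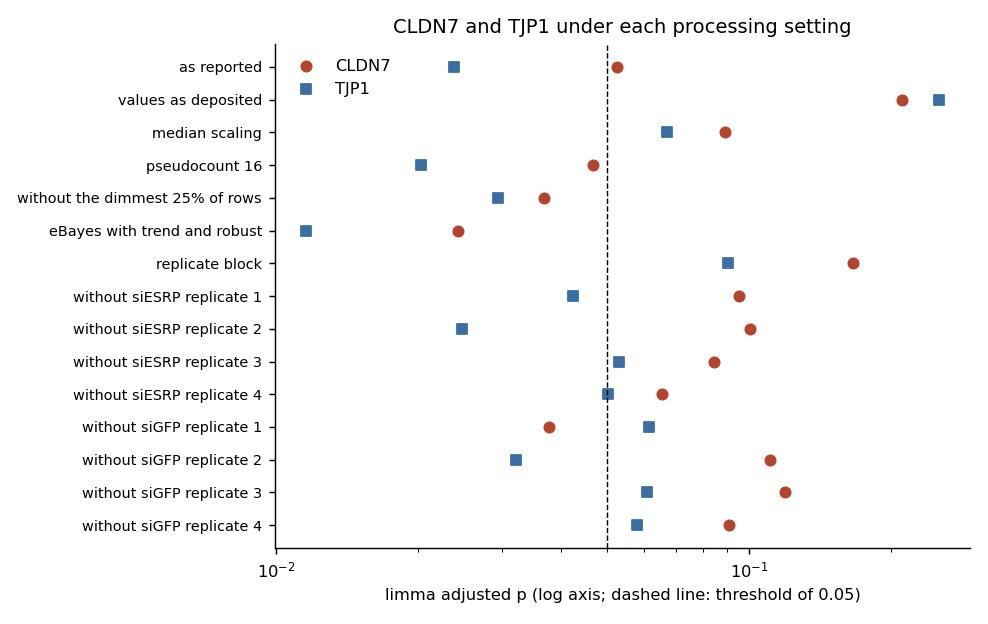
Limma adjusted p (log axis) of CLDN7 (circles) and TJP1 (squares) in the reported analysis and under each of 14 alternative settings. TJP1 lies left of the threshold of 0.05 as reported, at 0.0238, and under 6 alternatives, and CLDN7 lies right of it as reported, at 0.0525, and left of it under 4.

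CGN had 346, 285, 307 and 396 in siESRP arrays, against 318, 261, 299 and 263 in siGFP arrays. The siESRP arrays were higher on average, and 2 of them lay within the siGFP range. The means were 333 ± 48.6 in siESRP and 285 ± 28.0 in siGFP (SD, n = 4 each), with a log2 difference of 0.22, a 95% interval of -0.06 to 0.50 and a limma adjusted p of 0.261. Its sign was positive in every alternative run.

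**Figure D3:**
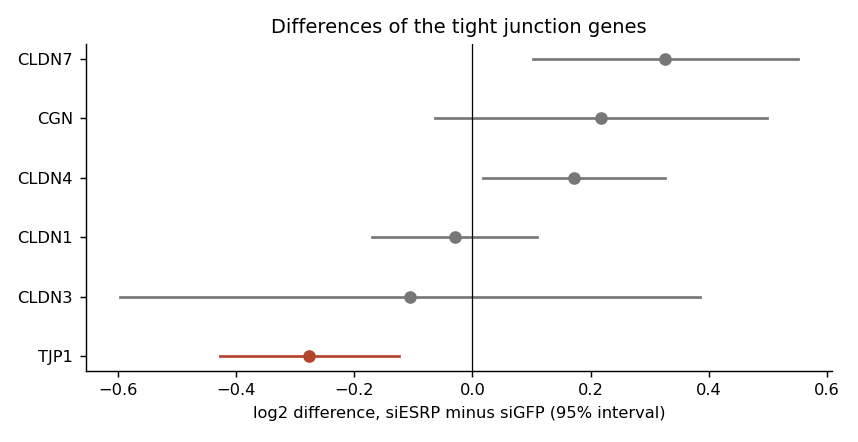
Log2 difference, siESRP minus siGFP, of the 6 genes with the 95% interval from limma. The interval of TJP1, drawn in red because it passed, lies wholly below 0, those of CLDN7 and CLDN4 lie above 0 without passing after adjustment over all rows, and those of CGN, CLDN1 and CLDN3 span 0.

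The genes whose pattern over the 8 arrays was most like that of TJP1 were ZBED4, ARF6 and TMEM126A, with Pearson correlations of 0.993, 0.983 and 0.976 of log2 values among 9276 genes with a mean of at least 100. ARF6, a small GTPase of membrane traffic, averaged 2859 ± 212 in siESRP and 3450 ± 187 in siGFP (SD, n = 4 each). All 3 were chosen for this likeness, which 2 separated groups of the same 8 arrays favour, so the correlations are a description.

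The other claudins gave no call. Of 14 measured in a list of 20, 0 passed, 5 were higher and 8 lower by sign, and the median log2 difference was -0.01. CLDN23 was below 0 on every array, so its log2 difference was 0. These counts include the 6 claudins with means under 50 that are named below. By limma 1 of the 14, CLDN19, had an unadjusted p under 0.05. CLDN19, known from the kidney and the eye, had 74.4, 82.5, 90.6 and 67.3 in siESRP arrays, against 128, 115, 80.9 and 124 in siGFP arrays, with a log2 difference of -0.49 and an adjusted p of 0.0821. Only siGFP array 3 lay within the siESRP range, and without that array CLDN19 passed (log2 difference -0.63, adjusted p = 0.0146). CLDN5, the endothelial claudin, passed when siGFP array 2 was left out (log2 difference -0.39, adjusted p = 0.0490).

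Claudin-12, a claudin without the usual scaffold-binding tail, had 1756, 1641, 1649 and 1638 in siESRP arrays, against 1879.6, 1669, 1744 and 1483 in siGFP arrays. The siGFP arrays surrounded the siESRP arrays, and the log2 difference of CLDN12 was -0.02 with a 95% interval of -0.19 to 0.16. A row shared by GTPBP10 and CLDN12 averaged 385 ± 39.2 in siESRP and 510 ± 131 in siGFP (SD, n = 4 each). Its log2 difference of -0.37 did not pass (limma adjusted p = 0.220) and cannot be assigned to either gene. CLDN11, known from myelin and testis, averaged 547 ± 77.0 in siESRP and 552 ± 86.0 in siGFP (SD, n = 4 each, log2 difference -0.01). CLDN14 and CLDN15 had log2 differences of 0.15 and -0.01, but over the 14 alternatives these ran from -0.13 to 0.39 and from -0.16 to 0.16, so neither has a settled direction. CLDN14 ran from 94.6 to 284 in siESRP and from 90.0 to 193 in siGFP, with a 95% interval of the fold change from 0.543 to 2.28. A further 6 claudins, CLDN6, CLDN8, CLDN9, CLDN17, CLDN20 and CLDN23, had means under 50 in both groups, and no fold is given for them.

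Of 13 measured genes in a list of other junction membrane proteins, which included nectins of the adherens junction, 3 rose and 0 fell. By sign, 4 of the 13 were higher and 9 lower. The largest difference was that of CLMP, an adhesion molecule of the immunoglobulin superfamily related to the coxsackievirus and adenovirus receptor. CLMP had 1010, 927, 887 and 926 in siESRP arrays, against 309, 260, 287 and 316 in siGFP arrays, and the groups lay far apart. It rose 3.20-fold, with a 95% interval of 2.83 to 3.62 (limma adjusted p = 6.16e-05), and it passed in all 14 alternatives.

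The other 2 that rose were nectins, adhesion molecules of the adherens junction that bind afadin. NECTIN4 had 249.9, 272, 278 and 306 in siESRP arrays, against 210.2, 179, 205 and 172 in siGFP arrays, and rose 1.44-fold (limma adjusted p = 0.00752). NECTIN2 had 1109, 1331, 1146 and 1102 in siESRP arrays, against 928, 978, 845 and 939.8 in siGFP arrays, and rose 1.27-fold (limma adjusted p = 0.0215). NECTIN2 did not pass without siGFP array 1 or 3 (adjusted p of 0.0509 and 0.0516), and on the deposited scale neither nectin passed (0.0838 for NECTIN2 and 0.0527 for NECTIN4). LSR, which recruits tricellulin to corners where 3 cells meet, averaged 1082 ± 183 in siESRP and 1413 ± 124 in siGFP (SD, n = 4 each, limma adjusted p = 0.0732), and was named after its value was seen.

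Of 15 measured plaque and scaffold genes besides TJP1 and CGN, 4 rose and 1 fell. TJP3 encodes ZO-3, the third zonula occludens scaffold. TJP3 had 258, 284, 342 and 312 in siESRP arrays, against 131, 173, 147 and 176 in siGFP arrays. The groups were well apart, and TJP3 rose 1.90-fold (95% interval 1.55 to 2.34, limma adjusted p = 0.00298). It thus rose while TJP1 fell, and the difference between these 2 was not tested.

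CGNL1 encodes paracingulin, a relative of cingulin at cell junctions. CGNL1 had 151, 155, 102 and 127 in siESRP arrays, against 73.5, 72.8, 87.8 and 73.8 in siGFP arrays, and rose 1.71-fold (limma adjusted p = 0.0103). The groups did not overlap, with siESRP array 3 the closest to siGFP.

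AFDN, which encodes afadin, the actin-binding partner of the nectins, had 914, 881, 1154 and 1112 in siESRP arrays, against 631, 682, 667 and 669.5 in siGFP arrays. It rose 1.52-fold (limma adjusted p = 0.00600), and its siGFP arrays lay within a much narrower range than its siESRP arrays. VAPA, a membrane protein of the endoplasmic reticulum that also binds occludin, had 2687, 2780.5, 2199 and 2435 in siESRP arrays, against 1602, 1591, 1573 and 1828 in siGFP arrays, and rose 1.53-fold (limma adjusted p = 0.00403).

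PARD3, a polarity scaffold that binds JAM-A, was the gene that fell. It had 1093, 1093, 1064 and 1007 in siESRP arrays, against 1263, 1234, 1191 and 1279 in siGFP arrays, a 1.17-fold decrease (limma adjusted p = 0.0136). The groups did not overlap, but on the deposited scale its adjusted p was 0.211.

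**Figure D4:**
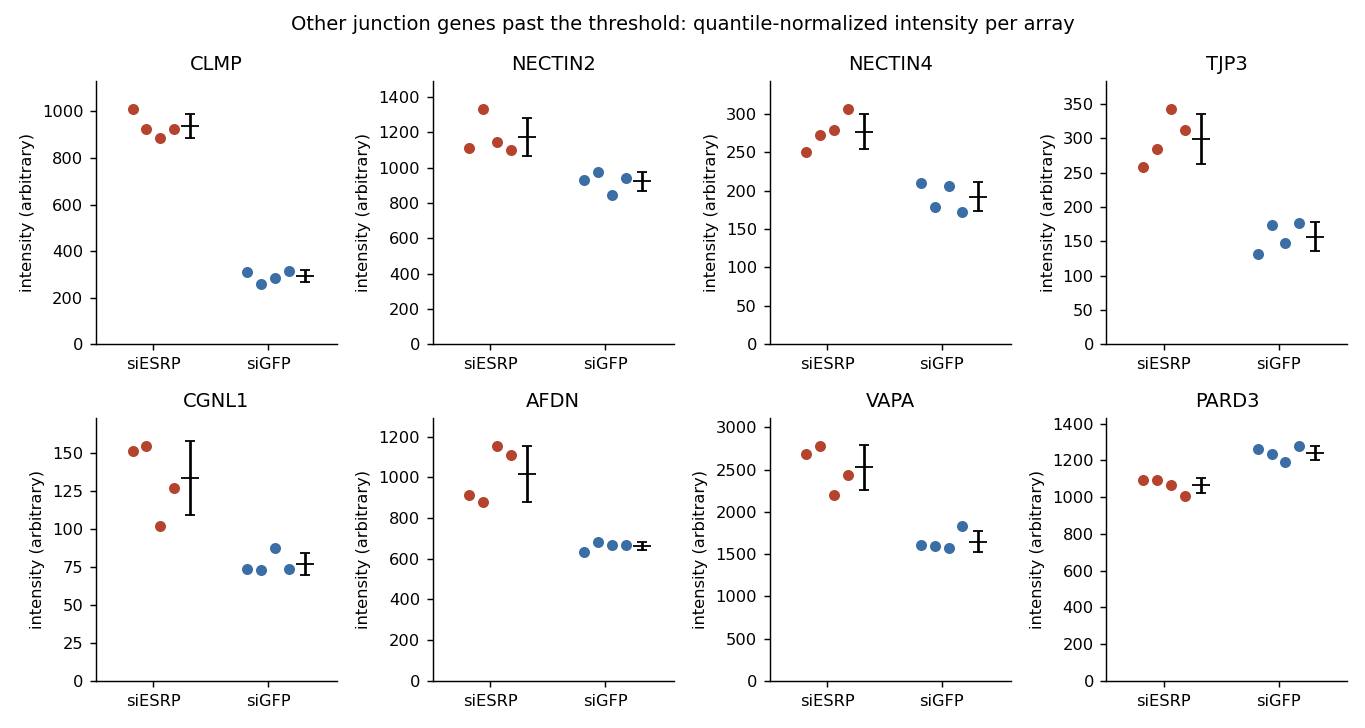
Quantile-normalized intensity (arbitrary linear units, axes from 0) of the 8 other membrane and plaque genes that passed, with 1 point per array and the mean ± SD beside each group. The siESRP arrays lie above the siGFP arrays for CLMP, NECTIN2, NECTIN4, TJP3, CGNL1, AFDN and VAPA and below them for PARD3.

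Of 11 measured regulators of junction traffic and contractility, 1 rose and 1 fell. RAB13, a Rab GTPase that carries claudins and occludin to the junction, averaged 1456 ± 46.5 in siESRP and 1194 ± 106 in siGFP (SD, n = 4 each), and rose 1.22-fold (limma adjusted p = 0.0264). It did not pass without siESRP array 1, 3 or 4 or siGFP array 3 or 4 (adjusted p of 0.0701, 0.0571, 0.0652, 0.0568 and 0.0665), nor on the deposited scale (0.324). RAB8A, a relative that acts in apical transport, had 1938, 1891, 1661 and 1936 in siESRP arrays, against 2522, 2466, 2375 and 2615 in siGFP arrays. It fell by 1.35-fold (limma adjusted p = 0.00423), with an adjusted p of 0.0810 on the deposited scale.

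Of 14 measured transcription factors reported on claudin or junction genes, 1 rose and 2 fell. GRHL3, a grainyhead-like factor of barrier-forming epithelium, had 320.1, 280.2, 326 and 443 in siESRP arrays, against 123, 169, 140.2 and 102 in siGFP arrays, and rose 2.56-fold (limma adjusted p = 0.00357). KLF4, a Krüppel-like factor needed for the skin barrier, had 536, 510.3, 501 and 548 in siESRP arrays, against 1114, 1156, 1067 and 1140 in siGFP arrays. It fell by 2.14-fold (limma adjusted p = 5.95e-05), and GRHL3 and KLF4 passed in all 14 alternatives. GRHL1 fell by 1.20-fold to 222 ± 8.43 in siESRP, against 266 ± 12.7 in siGFP (SD, n = 4 each, limma adjusted p = 0.0121), and did not pass on the deposited scale (0.211). GRHL2, known as a direct activator of CLDN4, averaged 1294 ± 53.0 in siESRP and 1488 ± 131 in siGFP (SD, n = 4 each) and did not pass (limma adjusted p = 0.0972). Every siESRP array of GRHL2 lay below every siGFP array, with a siESRP maximum of 1324 and a siGFP minimum of 1358. The E-box repressors did not pass either. Log2 differences were 0.12 for SNAI1, -0.14 for SNAI2 and -0.23 for ZEB1. ZEB1 was dim, with means of 52.8 in siESRP and 61.9 in siGFP. ZEB2 was under 50 on every array, and no fold is given for it.

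**Figure D5:**
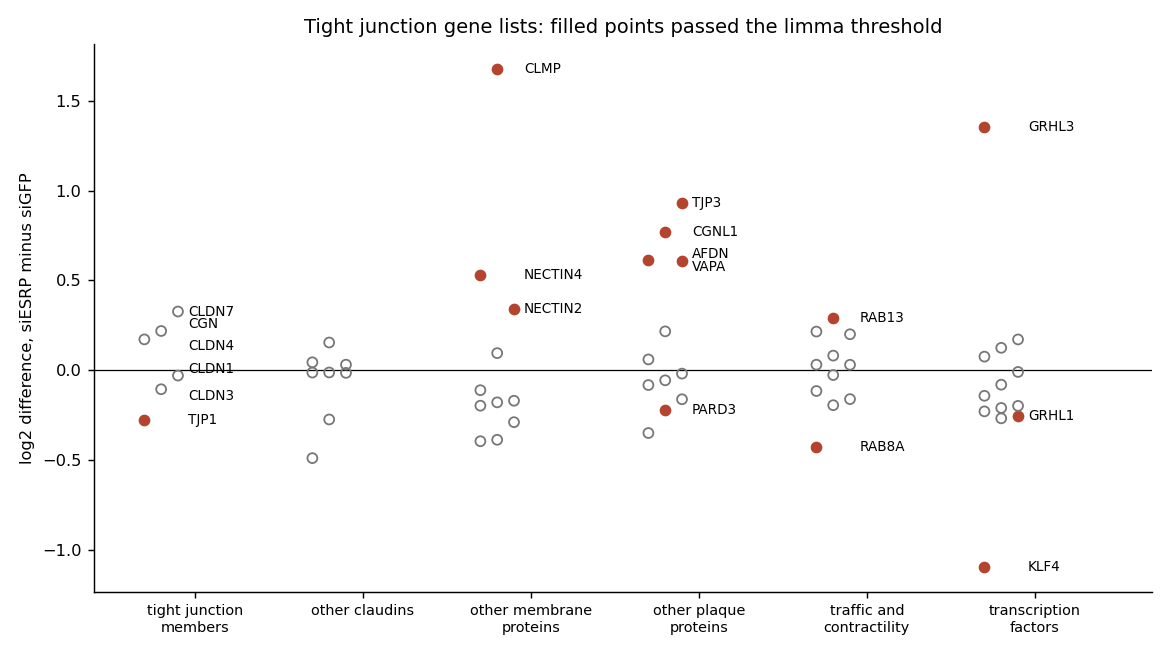
Log2 difference, siESRP minus siGFP, of 61 genes from 6 lists of tight junction and related genes. Each had a mean of at least 50 in 1 group or both. Filled points passed the limma threshold, all 6 members are labelled, and the widest differences are those of CLMP and GRHL3 above 0 and KLF4 below 0.

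The shares called in these lists were 23.1% of the membrane genes, 33.3% of the plaque genes, 18.2% of the regulators, 21.4% of the transcription factors and 0% of the other claudins, beside 20.2% of all rows. List medians were -0.18, 0.00, 0.03, -0.11 and -0.01 on the log2 scale. The plaque median is the value of MICALL2, which was below 0 on every array and so was raised to 0. Shares and medians include genes with means under 50 over all arrays. These were 2 of the membrane genes, 3 of the plaque genes, 0 of the regulators, 1 of the transcription factors and 6 of the other claudins. The rows used here are at the level of genes, so exon use was not measured, and whether a change in exon use moved any of these values was not tested.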

How the data were processed

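RNA of 8 PNT2 samples was measured on Affymetrix human exon arrays, with 1 array per sample, and groups came from the sample titles. The authors deposited a table of linear intensity values with 18495 gene-level rows. The values are whole numbers, and 2.70% to 4.02% per array are below 0. The sources used here do not state the background correction, probe summary or scaling.

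The linear values were quantile normalized between arrays, those below 0 were raised to 0, and a pseudocount of 1 was added before taking log2. Fold changes refer to log2(value + 1) and understate changes of dim genes. Limma 3.58.1 (R 4.3.3; lmFit, eBayes) compared 4 siESRP with 4 siGFP arrays without covariates. Tests were two-sided, p-values were adjusted by Benjamini-Hochberg across the whole table, and the threshold was 0.05. The steps were tested on simulated data whose planted changes were all larger than those of the members, so recovery of changes as small as theirs was not tested. The number of arrays limits the precision.

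Names came from GEO's platform annotation, and 14550 of 14577 rows with 1 symbol matched RefSeq's GRCh38.p14 gene table by Entrez ID. A gene with several rows took the brightest. Named were all members, up to 4 called genes with the smallest p per direction and list (all where 5 or fewer were called), and the 5 brightest other claudins. LSR, CLDN5, GRHL2, dim claudins, markers and repressors were named after their values were seen. Members and lists were chosen with earlier results of these data known. Alternatives were the deposited scale, median scaling, a pseudocount of 16, leaving out the dimmest 25% of rows, a trended and robust eBayes, a replicate block and leaving out each array.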

Additional observations from a re-analysis of the deposited data

Results flagged for a closer look

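Of 48 groups of 4 values of the named genes, 5 had an outlying array by Dixon's test at the 95% level, which compares the gap to the nearest array with the whole range. Chance gives about 1 in 20, or 2.4 of 48. In siESRP these were CLDN1, with array 2 low (ratio 0.853), CLDN12, with array 1 high (0.902), and RAB8A, with array 3 low (0.842). In siGFP they were CGNL1, with array 3 high (0.927), and VAPA, with array 4 high (0.875). The 5 fell on 5 different arrays.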

How the results depend on the processing

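Across 14 alternatives for 24 named genes, 0 called values changed direction, and in 14 pairs the sign of an uncalled value turned (CLDN1 2, CLDN12 2, CLDN11 3, CLDN14 3, CLDN15 4). Of the 14 genes called as reported, CLMP, TJP3, AFDN, VAPA, GRHL3 and KLF4 passed under every alternative, and 27 of 336 gene and alternative pairs lost a call while 6 gained one. The number of all rows called was 1673 on the deposited scale and 2292 with the replicate block, against 3729 as reported. Of the 6 members, 0 were called with median scaling, with the replicate block or in the values as deposited, and 2, TJP1 and CLDN7, with a pseudocount of 16, without the dimmest 25% of rows and with a trended and robust eBayes; leaving out 1 array gave 0 to 1, and without siGFP array 1 the 1 was CLDN7. On the deposited scale 1 membrane gene and 0 regulators were called. Without the dimmest rows, with a trended and robust eBayes, or without siESRP array 2 or 3, 3 membrane genes rose and 1 fell. With the replicate block, or without siGFP array 1 or 3, 2 membrane genes rose and 0 fell. With median scaling 1 regulator was called. With the replicate block 3 plaque genes and 1 regulator were called. Without the dimmest rows 1 other claudin, CLDN19, was called (adjusted p = 0.0397). Leaving out 1 array gave 0 to 1 other claudins and 1 to 3 regulators, the 3 without siGFP array 1. The causes were not tested. Deviations of same-numbered arrays from their group means correlated at -0.18 to 0.05 over all rows. The labels do not say whether these arrays were paired, and correlations from so few arrays cannot decide it. The median log2 difference of all rows was -0.02 as reported, -0.11 with median scaling and -0.10 in the values as deposited. No gene had several rows with its symbol alone among the members, so averaging rows was not run. No detection call was used, and genes with means under 50, a limit set here, were given no fold.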
